A study of Mus musculus with 12 samples.

Results

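Among thymic lymphomas with high Rag1, resistant and responding tumours were compared with each other. Rag1 (ENSMUSG00000061311), the recombinase gene of developing lymphocytes, was taken as CPM, its count divided by the column total and scaled to 1000000, and tumours above 100 CPM were kept. The members were thus chosen by the measured level of Rag1. The rule kept 7 of 12 tumours, namely all 4 labelled non-responder and 3 of the 8 labelled responder, and it left out 5 responders below 10 CPM. All tumours were thymic lymphomas of C57BL/6 mice of the genotype p53neo/R172H;R26CreER/GNZ. One Trp53 allele was neo, from which Cre was to restore wild-type p53, and the other was the R172H mutant, with a CreER recombinase at R26. Mice with a tumour on magnetic resonance imaging received tamoxifen into the abdomen every week, so that Cre would switch wild-type p53 back on. The tumours were frozen after the last scan, in which they had grown (non-responder) or shrunk (responder). Non-responders and responders therefore shared genotype, strain, mutant allele and drug, and no untreated tumour was analysed here. The labels describe independent biological samples and give no age, dose, batch or pairing. Per-gene counts cannot separate transcripts of the restored and the R172H allele, and they do not show in how many cells recombination took place.

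p53 is a transcription factor that halts the cell cycle and starts apoptosis after DNA damage or oncogene activation, and thymocytes are among the cells most ready to die when it is active. R172H removes DNA binding while the mutant protein can still join wild-type p53 in a tetramer. Thymic lymphomas arise from immature T cells, which rearrange their receptor genes in the thymic cortex with the RAG recombinase, add nucleotides with terminal transferase (Dntt) and signal through the pre-T-cell receptor (Ptcra). Comparing tumours that all express Rag1 holds this stage of development closer between the response classes than a comparison of all tumours does.

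The 7 libraries held 20796860 to 26182939 counts. Each non-responder library was smaller than each of the 3 responder libraries, with a mean difference of -3062100 counts (exact permutation p = 0.0571, two-sided, the smallest that 35 splits allow). The share of mitochondrial counts also did not overlap, at 1.70 to 1.85% in responders and 1.25 to 1.57% in non-responders (exact permutation p = 0.0571). No pair of libraries agreed within sampling noise, since the lowest chi-square per degree of freedom was 58.8. T-lineage genes were present in all 7, with Lck at 531 to 857 CPM and Cd3e at 47.9 to 162 CPM. The first principal component held 30.3% of the variance and did not separate the classes: responders lay at -85.8, -18.8 and 38.8, and non-responders at -35.9, 55.0, -15.3 and 61.9. Responder 1 stood apart by its mean log2 CPM over the genes of other cell types, 4.28 against 1.84 to 2.72 in the other 6, and non-responder 2 by its place on the third component, 79.1 against -36.7 to 20.2. The medians of many gene lists, though not of all, are therefore also given without responder 1. From here on, levels are CPM after scaling by trimmed mean of M values (TMM) and are listed for responders 1 to 3 and then non-responders 1 to 4. Differences are log2 fold changes, non-responder minus responder, with their standard error (SE), and the p-values measure the spread between tumours.

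Rag1, by which the tumours were chosen, and Dntt and Ptcra, which took no part in the rule, are given as a description. By column total, Rag1 was at 971, 1118 and 1181 CPM in the responders and at 1459, 165, 1776 and 1142 CPM in the non-responders. The lowest kept tumour, non-responder 2 at 165 CPM, and the highest tumour left out, responder 5 at 2.98 CPM, were the nearest on either side of the rule. The 5 responders left out lay between 0.41 and 2.98 CPM. Dntt followed the same split, at 605, 930 and 567 CPM in responders and 665, 18.5, 530 and 345 CPM in non-responders. Non-responder 2 thus had the lowest level of both genes. Ptcra was at 9.89, 30.99 and 52.98 CPM and at 26.9, 66.3, 42.5 and 39.997 CPM, with the lowest value in responder 1. In the 5 tumours left out Ptcra lay at 0 to 0.12 CPM. Recombination and pre-T-cell receptor genes numbered 20, of which 13 lay higher and 7 lower in the resistant class, with a median log2 fold change of 0.06. None was without overlap, beside 6.02% of all genes tested, a share too small for that count to mark the list. The plot of these markers and of the p53 genes shows each tumour.

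**Figure D1:**
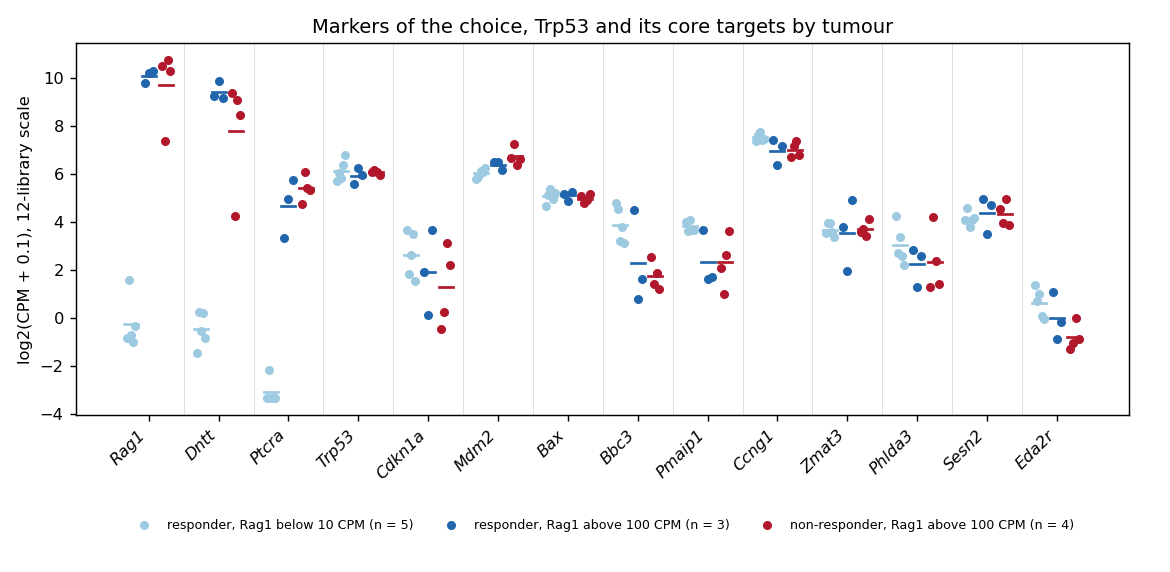
Level of Rag1, Dntt, Ptcra, Trp53 and 10 core p53 targets on a log2(CPM + 0.1) axis, 1 point per tumour and a bar at the mean of each class. Rag1, by which the tumours were chosen, separates the pale points (responders left out) from the rest, and so do Dntt and Ptcra. The 2 classes with high Rag1 overlap for Trp53 and for every core target.

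No gene separated the classes past the adjusted threshold. Of 17470 genes tested with edgeR's quasi-likelihood test, 0 (0.0%) had a Benjamini-Hochberg adjusted p under 0.05, and the lowest adjusted p was 0.884. At an unadjusted p under 0.05 there were 958 genes (5.48%), 337 higher (1.93%) and 621 lower (3.55%) in non-responders. limma-voom also called 0, with 969 genes (5.55%) at an unadjusted p under 0.05, whereas DESeq2 called 57 of 17276 genes (0.33%), 18 higher (0.104%) and 39 lower (0.226%). In 54 of those 57 the CPM of the classes did not overlap. On simulated data of this design DESeq2 made more false calls than edgeR or limma-voom. A DESeq2 pass given below, without one in edgeR, therefore does not establish a difference. Over all genes tested, 1052 (6.02%) had no overlap, 529 higher (3.03%) and 523 lower (2.99%), and the median log2 fold change was -0.00092. For a gene without ties, a share of 0.0571 of the 35 splits of 4 against 3 tumours leaves no overlap. The 6.02% lies near that share, so lack of overlap in a single gene does not by itself mark it. Values below therefore describe these 7 tumours, and a gene is called higher or lower from its fitted value unless a passed test is stated. Kat5, Plin4, Alas2 and Eng, described below, overlap Rnaseh2c, Hdgfl2, Apex2 and Fpgs on the opposite strand, and several others overlap predicted or noncoding genes, so reads in those overlaps cannot be assigned.

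Trp53 and its core targets did not separate the classes. Trp53 was at 46.9, 74.6 and 61.6 CPM in responders and 67.6, 71.1, 67.9 and 61.7 CPM in non-responders (log2 difference 0.14, SE 0.20, edgeR adjusted p = 0.956). All 4 non-responders lay within the range of the 3 responders. Of the 10 core targets, 2 were higher, 8 lower, 0 passed and 0 were without overlap (6.02% of all genes tested), with a median of -0.12. Eda2r, 1 of the 8, met the filter on low counts through the responders alone, so a difference was built into its being tested. Without responder 1, 6 were higher and 4 lower, with a median of 0.19.

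Among the arrest genes, Cdkn1a, which encodes the cyclin-dependent kinase inhibitor p21, was low in every tumour. It was at 3.63, 0.99 and 12.5 CPM in responders and 0.62, 1.09, 8.46 and 4.48 CPM in non-responders (-0.64, SE 1.02, edgeR adjusted p = 0.962). Responder 3 and non-responder 3 were the highest of their classes, and without responder 3 the value was 0.67. Mdm2, the ubiquitin ligase that degrades p53 and is itself a p53 target, was at 90.3, 88.9 and 71.5 CPM against 102, 150, 82.7 and 96.3 CPM (0.36, SE 0.24). Ccng1, cyclin G1, was at 168, 81.1 and 141 CPM against 104, 141, 162 and 109 CPM, a difference of -0.01 (SE 0.29).

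The apoptosis genes varied more. Bbc3, which encodes the BH3-only killer PUMA, was at 22.5, 1.59 and 2.93 CPM in responders and 5.68, 2.52, 3.50 and 2.17 CPM in non-responders. Responder 1 alone was high, and its log2 value of -1.38 (SE 0.86, edgeR adjusted p = 0.894) was 0.62 without that tumour. Pmaip1, which encodes the related NOXA, was at 12.4, 2.94 and 3.13 CPM and at 4.08, 1.90, 5.98 and 12.2 CPM, so that responder 1 and non-responder 4 were equally high. Bax, the pore-forming effector, stayed between 26.9 and 38.1 CPM in all 7. Of 30 measured genes of the BCL2 family and the apoptosis machinery, 13 were higher and 17 lower, with a median of -0.10, and without responder 1 22 were higher and 8 lower, with a median of 0.08. Bmf, another BH3-only gene, was at 53.02, 39.7 and 40.2 CPM against 113, 52.4, 70.3 and 57.7 CPM (0.73, SE 0.30).

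Among 48 further and overlapping p53 targets, 21 were higher and 27 lower with a median of -0.03, which was 0.10 without responder 1. In each direction 1 was without overlap, beside 3.03% (higher) and 2.99% (lower) of all genes tested. Ddit4, a stress-induced inhibitor of the mTOR growth kinase, was at 124, 108 and 91.5 CPM in responders and 178, 145, 210 and 372 CPM in non-responders (log2 difference 1.07, SE 0.34, edgeR adjusted p = 0.884). Every non-responder was above every responder, with non-responder 4 the highest. Tigar, which encodes a phosphatase that slows glycolysis, was the other, at 7.38, 7.56 and 10.8 CPM against 7.06, 6.70, 5.63 and 5.11 CPM. In the 5 responders left out, on a common scale of all 12 libraries, Ddit4 lay at 59.9 to 119 CPM against 148 to 380 CPM in non-responders. Of 20 measured regulators of p53, 13 were higher and 7 lower, with a median of 0.09. Kat5, the acetyltransferase TIP60 that modifies p53 after damage, was at 26.0, 21.4 and 21.6 CPM against 29.7, 34.7, 36.1 and 33.0 CPM (0.54, SE 0.19). Cdkn2b, a cell-cycle inhibitor next to the Cdkn2a locus, was at 13.8, 14.8 and 12.1 CPM against 9.99, 10.1, 9.84 and 9.99 CPM.

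Among genes higher in non-responders, the 12 with the lowest p are described next. All 12 were without overlap, none passed in edgeR (adjusted p = 0.884 for each), and 10 of them passed in DESeq2. The ranking used these same tumours. Lack of overlap, close values within a class and a DESeq2 pass are therefore partly built into the choice and are no separate support. Thnsl2 (ENSMUSG00000054474), which encodes a threonine synthase-like protein, lies on chromosome 6 from 71128166 to 71144439 (GRCm38). It was at 6.71, 7.36 and 7.504 CPM in responders and 22.2, 20.9, 36.9 and 17.8 CPM in non-responders (log2 difference 1.76, SE 0.31, DESeq2 adjusted p = 0.000343). The responders agreed closely with each other, and the lowest non-responder was above all of them. Adamts14, a protease that trims procollagen, was at 15.96, 8.35 and 6.39 CPM against 40.8, 41.4, 24.3 and 41.9 CPM (1.86, SE 0.38, DESeq2 adjusted p = 0.00262). Non-responder 3 was lower than the other 3, which were nearly equal. Faah, the enzyme that degrades the endocannabinoid anandamide, was at 10.6, 11.3 and 17.1 CPM against 29.8, 47.7, 26.0 and 32.0 CPM (1.38, SE 0.30).

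Fsd2 (ENSMUSG00000038663) encodes a protein known from striated muscle. It was at 4.57, 6.01 and 4.33 CPM in responders and 16.7, 36.9, 9.97 and 21.9 CPM in non-responders (log2 difference 2.10, SE 0.46, DESeq2 adjusted p = 0.00448). Non-responder 2 was the highest and the classes did not overlap. Myl1, the fast-muscle myosin light chain gene, and Ckm, the muscle creatine kinase gene, were lower in every non-responder than in every responder. The Fsd2 promoter is therefore shown beside theirs. Both met the filter on low counts through the responders alone, so a difference was built into their being tested. Fsd2 and muscle genes did not go opposite ways in every tumour, since non-responder 2 also had the highest Ttn, as described below. The windows are from RefSeq on GRCm38.p6 and run from 250 bases before to 50 after the annotated start, 5′ to 3′ on the gene's strand. Fsd2 lies at chr7:81566932-81567231 on the minus strand, Myl1 at chr1:66945007-66945306 on the minus strand and Ckm at chr7:19410844-19411143 on the plus strand. Capitals mark each CAGCTG, an E-box of the kind bound by myogenic factors, and each TATATA, which the general factor TBP can bind. Both words are their own reverse complement.
Fsd2: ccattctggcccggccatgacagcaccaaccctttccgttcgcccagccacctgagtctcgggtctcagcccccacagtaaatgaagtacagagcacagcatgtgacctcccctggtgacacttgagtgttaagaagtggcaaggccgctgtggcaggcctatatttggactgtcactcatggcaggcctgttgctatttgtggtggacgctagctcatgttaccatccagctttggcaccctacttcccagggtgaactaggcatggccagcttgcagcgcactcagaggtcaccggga
Myl1: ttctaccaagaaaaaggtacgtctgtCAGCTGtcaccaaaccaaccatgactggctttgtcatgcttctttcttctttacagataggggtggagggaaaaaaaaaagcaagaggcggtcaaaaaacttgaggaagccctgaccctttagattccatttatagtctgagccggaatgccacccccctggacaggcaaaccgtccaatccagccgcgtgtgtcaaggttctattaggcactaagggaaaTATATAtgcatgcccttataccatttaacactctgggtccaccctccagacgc
Ckm: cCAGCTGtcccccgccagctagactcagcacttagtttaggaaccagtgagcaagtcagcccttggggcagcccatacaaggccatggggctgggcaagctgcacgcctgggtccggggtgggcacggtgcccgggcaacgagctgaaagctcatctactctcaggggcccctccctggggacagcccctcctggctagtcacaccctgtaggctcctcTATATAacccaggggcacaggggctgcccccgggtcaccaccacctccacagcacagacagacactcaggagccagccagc
The Fsd2 window held 0 copies of either word, and those of Myl1 and Ckm held 1 of each. TATATA began 3 bases before the annotated start in Myl1 and 31 before it in Ckm. Other E-box words, such as the CACCTG in the Fsd2 window, were not counted. CAGCTG is in 16.3% and TATATA in 5.7% of 32851 windows of this length. These are matches of letters and say nothing of binding.

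Another 4 of the 12 varied little among the responders. Ess2, a spliceosome-associated gene, was at 15.4, 16.1 and 16.5 CPM against 27.2, 29.9, 29.9 and 25.7 CPM (log2 difference 0.82, SE 0.19, DESeq2 adjusted p = 0.003). Tmem19, a membrane protein gene, was at 20.4, 22.8 and 20.5 CPM against 36.7, 40.7, 31.4 and 41.3 CPM (0.82, SE 0.19). Smpd2, a neutral sphingomyelinase gene, was at 18.5, 18.4 and 18.4 CPM against 27.3, 35.4, 30.1 and 37.2 CPM. It overlaps Mical1 on the opposite strand, and reads there cannot be assigned because it is unknown whether strand was used for counting. Gkap1, which encodes an anchoring protein of cyclic GMP-dependent kinase, was at 7.08, 6.05 and 7.26 CPM against 10.6, 24.6, 15.3 and 23.8 CPM. In all 4 genes every non-responder was higher than every responder.

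H2-Q2, a class I gene of the Qa region, was at 11.2, 10.1 and 14.0 CPM against 33.1, 30.8, 23.9 and 52.7 CPM, and Oas1c, of the oligoadenylate synthetases, at 4.80, 4.61 and 3.63 CPM against 8.75, 16.2, 8.95 and 13.2 CPM. Both have near-identical relatives, so the split of reads among copies is uncertain. The 2 genes that did not pass in DESeq2 were scarce. Pla2g12b, of the secreted phospholipases A2, had 1 read in each responder library and 28, 8, 11 and 14 reads in the non-responders. Rbm42, an RNA-binding protein gene, was below 0.5 CPM in all 7 tumours, and it shares bases with the predicted gene Gm21982 on the same strand, so its counts are uncertain. Both reached the filter's minimum of 0.41 CPM in non-responders only, so a difference was built into their being tested.

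Set beside the 5 responders left out, these 12 genes showed different patterns, which are given as values because the non-responders are the same tumours. On the common scale of 12 libraries, Thnsl2 lay at 1.19 to 6.31 CPM in the responders left out and 18.1 to 37.7 CPM in non-responders. Fsd2 lay at 3.13 to 5.78 against 10.2 to 37.7 CPM and Smpd2 at 14.5 to 21.4 against 27.9 to 38.0 CPM. H2-Q2, Adamts14, Gkap1 and Pla2g12b were likewise below every non-responder in all 8 responders, though narrowly for the last 2. Gkap1 was at 10.1 CPM in responder 4 and 10.8 CPM in non-responder 1. Pla2g12b was at 0.375 CPM in responder 5 (9 reads) and 0.388 CPM in non-responder 2 (8 reads), a gap too small to separate them. Faah, in contrast, lay at 20.1 to 49.2 CPM in the responders left out, within reach of the 26.6 to 48.7 CPM of non-responders. The ranges also met for Ess2 (20.3 to 31.5 against 26.2 to 30.6 CPM), Oas1c (8.08 to 13.6 against 8.93 to 16.5 CPM), Tmem19 and Rbm42. For these 5 genes the classes were apart among tumours with high Rag1 and overlapped once the other responders were set beside them.

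**Figure D2:**
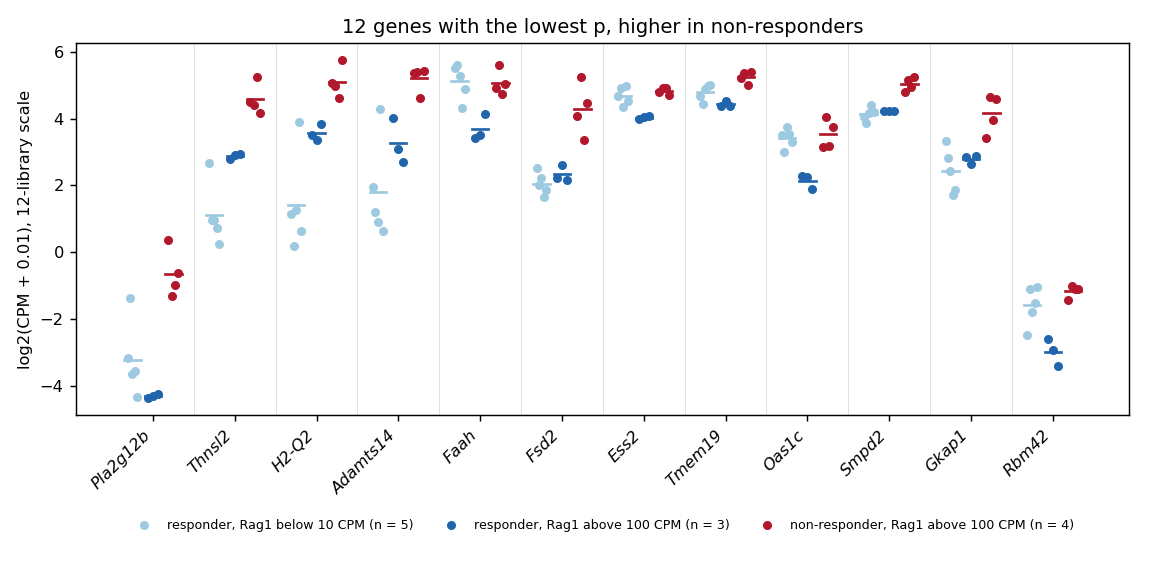
Level of the 12 genes with the lowest p that were higher in non-responders, on a log2(CPM + 0.01) axis with 1 point per tumour and a bar at the class mean. The red points (non-responders) lie above the dark blue points (responders with high Rag1) in all 12, while the pale points of Faah, Ess2, Tmem19, Oas1c and Rbm42 reach into the red range. The genes were ranked on the red and dark blue tumours, so the gap between those is partly built in.

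Of the 12 genes lower in non-responders with the lowest p, 11 are described, and Ldb3, Ckmt2 and Myl1 among them are genes of striated muscle. All 12 were without overlap, none passed in edgeR (adjusted p = 0.884 for each), and 11 passed in DESeq2. They too were ranked on these same tumours, so this pattern is partly built into the choice and is no separate support. Itga8, an integrin of mesenchymal cells, had the lowest p of all genes, at 2.47, 2.47 and 3.38 CPM in responders and 0.40, 0.29, 0.22 and 0.53 CPM in non-responders (log2 difference -2.93, SE 0.43, DESeq2 adjusted p = 0.000136). Myl1 was at 5.81, 1.71 and 3.67 CPM against 0.36, 0.38, 0.22 and 0.84 CPM (-3.04, SE 0.60). Ldb3, a Z-disc protein (-3.22, SE 0.60), and Ckmt2, the sarcomeric mitochondrial creatine kinase (-2.97, SE 0.58), were below 2.2 CPM in every tumour. Itga8, Myl1, Ldb3, Ckmt2 and Ppbp, 5 of the 12, met the filter, which asks for 0.41 CPM in at least 3 libraries, through the responders alone, so a difference was built into their being tested.

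Of the metabolic and transport genes, Pck1, the phosphoenolpyruvate carboxykinase of liver and fat, was at 55.7, 22.2 and 23.5 CPM in responders and 2.84, 6.65, 6.91 and 7.90 CPM in non-responders (log2 difference -2.48, SE 0.46, DESeq2 adjusted p = 0.00117). Responder 1 was the highest, and the lowest responder was still well above every non-responder. Slc36a2, an amino acid transporter enriched in brown fat, was at 6.29, 3.30 and 3.17 CPM against 0.22, 0.67, 0.62 and 0.93 CPM. Slco4a1, an organic anion transporter, was at 1.95, 6.88 and 4.58 CPM against 0.80, 0.57, 0.58 and 1.11 CPM. Ghr, the growth hormone receptor, was at 15.0, 7.44 and 9.81 CPM against 3.28, 3.04, 3.10 and 4.00 CPM. The non-responders were close to each other in Ghr and the responders spread more widely.

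Ogn, a small matrix proteoglycan gene, was at 25.8, 23.4 and 25.5 CPM against 13.4, 10.6, 11.8 and 13.4 CPM (log2 difference -1.02, SE 0.21), and it overlaps Cenpp on the opposite strand. Ifi211, an interferon-inducible gene of the p200 family, was at 22.8, 40.5 and 30.7 CPM against 4.09, 4.47, 11.4 and 2.80 CPM (-2.46, SE 0.49, DESeq2 adjusted p = 0.00262). It shares bases with Mndal, a close relative on the same strand, so its counts are uncertain. Ppbp, a platelet chemokine gene, was below 0.9 CPM in every tumour and did not pass in DESeq2. Among the responders left out, Ifi211 lay at 6.74 to 18.1 CPM on the common scale, which overlaps the 2.86 to 11.7 CPM of non-responders and lies below the 23.3 to 41.4 CPM of responders with high Rag1. Pck1 spread from 0.59 to 456 CPM there and Itga8 from 0.95 to 56.9 CPM.

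**Figure D3:**
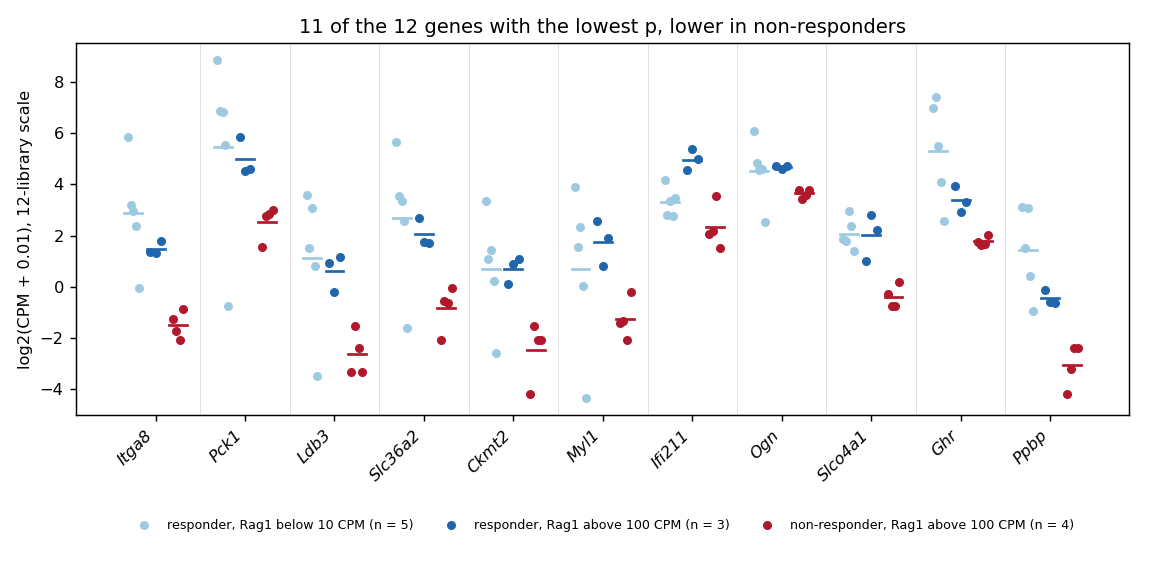
Level of 11 of the 12 genes with the lowest p that were lower in non-responders, on a log2(CPM + 0.01) axis with 1 point per tumour and a bar at the class mean. The red points lie below the dark blue points in all 11, and the pale points of Pck1 spread from 0.59 to 456 CPM. The genes were ranked on the red and dark blue tumours, so the gap between those is partly built in.

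Most genes on the fat, muscle and red-cell lists were lower in non-responders. These lists were drawn up to mark cells other than the lymphoma, though a member such as Tfrc on the red-cell list is also expressed by T cells. In bulk tissue fewer cells of a type cannot be told apart from less RNA per cell. All 12 measured adipocyte genes were lower, 10 of them without overlap (2.99% of all genes were lower without overlap), with a median log2 fold change of -2.02, and 0 passed in edgeR. Only 1 of the 12, Retn, met the filter on low counts through the responders alone, and with Lep, which was too low to test, the class mean was lower for 13 of 13. The summed level of the list was 691, 248 and 259 CPM in responders and 129, 124, 202 and 123 CPM in non-responders. Adipoq, the fat hormone adiponectin, was at 22.3, 10.5 and 10.8 CPM against 0.58, 3.61, 2.61 and 3.68 CPM (-2.47, SE 0.61, DESeq2 adjusted p = 0.021). Plin4, a coat protein of fat droplets, was at 28.9, 16.5 and 14.1 CPM against 4.57, 8.55, 4.43 and 7.32 CPM. The brown-fat genes were included: Cidea, a droplet-fusion protein gene, was at 3.67, 4.61 and 5.65 CPM against 0.04, 0.48, 0.49 and 0.89 CPM, and Ucp1, the uncoupling protein of heat production, at 27.6, 7.12 and 7.71 CPM against 0.09, 0.95, 2.66 and 1.15 CPM. Adipoq and Ucp1 were chosen after their values were seen. No member was at 0 counts in any tumour. Responder 1 was highest for the list, and without it all 12 genes were still lower, with a median of -1.17.

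Of 18 measured muscle genes, 17 were lower and 1 higher, 8 lower without overlap (2.99% of all genes tested), and the median was -2.95. Of these, 11 met the filter on low counts through the responders alone, so a difference was built into their being tested, and the counts and median over the 18 support nothing. Over all 20 listed genes, with Myh7 and Tnnc1 that were too low to test, the class mean was lower in non-responders for 19. The summed level was 455, 184 and 264 CPM in responders and 127, 345, 93.0 and 92.3 CPM in non-responders, so that non-responder 2 lay among the responders. Ttn was the largest part of that sum in every tumour, at 267, 117 and 117 CPM against 90.6, 312, 63.5 and 55.9 CPM. Ckm was at 10.04, 2.55 and 5.52 CPM against 0.18, 0.43, 0.27 and 1.55 CPM (log2 difference -3.30, SE 0.82), and Ryr2, the calcium release channel of the heart, at 4.38, 1.63 and 10.5 CPM against 1.33, 0.998, 0.22 and 0.36 CPM. Of the defining markers, Myh2 had 0 counts in non-responders 1, 2 and 3 and Mb, myoglobin, had 0 in non-responder 3. Without responder 1 the median of the list was -2.58.

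Of 12 measured erythroid genes, 11 were lower and 1 higher, with a median of -2.18. Without overlap 5 were lower, beside 2.99% of all genes tested. That count was 1 when haemoglobin, receptor-segment, mitochondrial and sex-linked genes were left out of the table. Some of the 12 met the filter on low counts through 1 class alone, and over all 13 in the table the class mean was lower for 12. Alas2, the first enzyme of haem synthesis in red cells, was at 28.4, 38.9 and 17.5 CPM in responders and 6.17, 13.9, 3.72 and 2.80 CPM in non-responders (log2 difference -2.09, SE 0.57). Non-responder 2 was the highest of its class in Alas2. The haemoglobin gene Hbb-bs was at 409, 512 and 275 CPM against 50.1, 210, 6.51 and 22.6 CPM. The summed level, of which the transferrin receptor gene Tfrc that dividing T cells also express was the largest part except in responder 1, was 1015 to 1955 CPM in responders and 837 to 1368 CPM in non-responders. Without responder 1 the median of the list was -2.20. Whether the tumours differed in the tissue or blood that was dissected with them was not tested.

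Genes of immune cells were lower in non-responders mainly through responder 1. For all 13 lists of other cell types the median lay below 0 with 7 tumours, and without responder 1 it lay below 0 for 7 and above 0 for 6. The dendritic list had 17 of 17 genes lower with a median of -1.24, which was 0.18 without responder 1. Of these genes 0 were without overlap, beside 6.02% of all genes tested. Its summed level was 3713, 522 and 266 CPM in responders and 598, 341, 536 and 211 CPM in non-responders. H2-Aa, a class II histocompatibility gene, had levels of 977, 113 and 44.98 CPM against 93.3, 71.3, 99.7 and 30.8 CPM. The cytotoxic and NK-cell list had 8 of 9 genes lower with a median of -2.69, and 0.05 without responder 1. Of the 9, Klrb1c and Nkg7 met the filter on low counts through the responders alone and Eomes through the non-responders alone. Another 6 listed genes were too low to test, and over all 15 the class mean was lower in non-responders for 14. Nkg7, a granule protein gene of those cells, was at 23.5 CPM in responder 1 and below 1 CPM in the other 6. Gzma, another granule protein gene, did not follow responder 1. It was at 180, 237 and 143 CPM in responders and 83.5, 71.9, 89.8 and 156 CPM in non-responders, with overlap. B-cell genes were 13 of 15 lower (median -1.55, and 0.15 without responder 1). Plasma-cell genes were 7 of 9 lower (-1.10, and 0.33 without it).

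Neutrophil genes were 8 of 10 lower with a median of -1.78, and -0.39 without responder 1. S100a9, a subunit of calprotectin, was at 97.1, 8.83 and 4.12 CPM in responders and 0.53, 0.81, 3.50 and 1.38 CPM in non-responders (log2 difference -4.56, SE 1.16, DESeq2 adjusted p = 0.00336). The classes did not overlap, though responder 1 was far above the other responders. Macrophage genes were 14 of 22 lower with a median of -0.15, and without responder 1 3 were lower and 19 higher, with a median of 0.76. On that list non-responder 3 had a summed level of 5537 CPM beside the 5261 CPM of responder 1. Endothelial genes were 19 of 19 lower with a median of -0.55, fibroblast and matrix genes 20 of 22 lower with -0.48, and thymic epithelial genes 16 of 20 lower with -0.75. Without responder 1 these medians were -0.27 (15 of 19 lower), -0.28 (18 of 22 lower) and -0.30 (11 of 20 lower). On the thymic epithelial list Pax1 and Prss16 met the filter on low counts through the responders alone, and Cldn3 through the non-responders alone. Eng, endoglin, was at 15.6, 10.3 and 13.7 CPM against 9.68, 5.13, 7.89 and 7.59 CPM. Cldn4, a claudin on the thymic epithelial list, was higher, at 15.9, 12.6 and 34.4 CPM against 41.8, 20.5, 65.0 and 52.9 CPM with overlap.

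**Figure D4:**
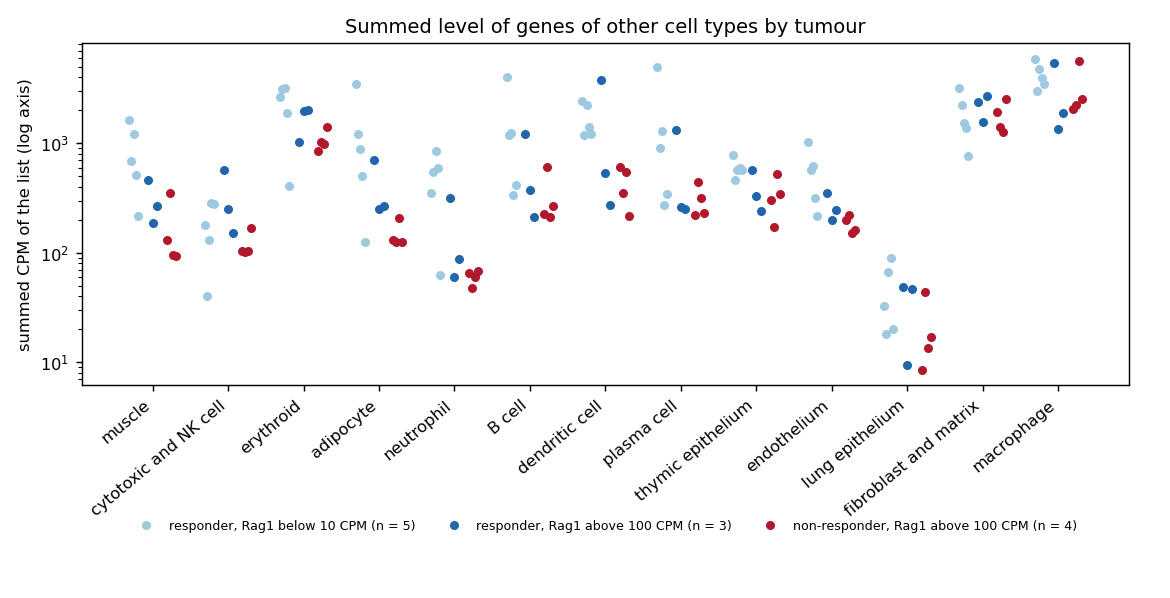
Summed CPM of each list of genes of another cell type on a log axis, 1 point per tumour, on the scale of 12 libraries. For adipocyte genes the 4 red points (126 to 206 CPM) lie below the 3 dark blue points (254 to 705 CPM), while for dendritic and cytotoxic genes 1 dark blue point stands above the rest.

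Several lists of T-cell and interferon genes had medians below 0 that moved toward or past 0 without responder 1. Mature T-cell genes were 19 of 24 lower with a median of -0.61, and 0.19 without responder 1. Ly6c2, a surface antigen of memory T cells and monocytes, was at 103, 3.90 and 2.76 CPM against 1.02, 3.42, 8.06 and 1.47 CPM. Early T-progenitor genes were 15 of 16 lower, with a median of -0.70 that was -0.05 without responder 1. Cd34, a stem and endothelial cell antigen on that list, was at 23.3, 13.1 and 14.1 CPM against 10.7, 7.22, 10.01 and 6.70 CPM without overlap. Interferon-stimulated genes were 32 of 36 lower, with a median of -0.58 that was -0.06 without responder 1. Xaf1, an interferon-induced promoter of apoptosis, was at 17.9, 14.2 and 15.7 CPM against 9.63, 9.74, 11.7 and 8.48 CPM (log2 difference -0.69, SE 0.24). Class I presentation genes were 13 of 18 lower with a median of -0.25, and without responder 1 4 were lower and 14 higher, with a median of 0.31, while the peptide transporter gene Tap2 was higher without overlap, at 80.8, 88.2 and 91.4 CPM against 119, 99.9, 140 and 107 CPM. The retinoic acid list had 23 of 30 genes lower, with a median of -0.45 that was -0.02 without responder 1.

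Of the signalling lists, NOTCH drives most T-cell leukaemias, and its 30 measured genes had 20 higher and 10 lower with a median of 0.10. Notch1 itself was at 773, 1844 and 1462 CPM in responders and 6280, 4337, 867 and 1141 CPM in non-responders (log2 difference 1.22, SE 0.72, edgeR adjusted p = 0.892). Non-responders 1 and 2 were above all others and non-responders 3 and 4 lay within the responders. Notch1 was chosen after its values were seen. On the common scale the 5 responders left out had 73.4 to 130 CPM. Jag2, a NOTCH ligand, was at 20.5, 15.0 and 18.3 CPM against 22.1, 26.6, 46.2 and 34.0 CPM (0.84, SE 0.29), whereas the ligand Jag1 was at 16.6, 7.92 and 10.7 CPM against 6.84, 3.94, 8.28 and 6.57 CPM with overlap. T-cell receptor signalling genes were 13 higher and 11 lower of 24.

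The NF-kB list had 12 genes higher and 15 lower of 27, with a median of -0.16, and without responder 1 19 were higher and 8 lower, with a median of 0.16. Nfkb2, the p100 precursor of the non-canonical branch, was at 65.8, 38.1 and 23.2 CPM in responders and 20.7, 18.2, 21.4 and 17.5 CPM in non-responders (log2 difference -1.12, SE 0.33, edgeR adjusted p = 0.884). The classes did not overlap, and responder 3 was close to the non-responders. Relb, the partner of p100, was at 23.2, 9.39 and 7.54 CPM against 6.57, 5.61, 7.89 and 5.51 CPM, with overlap. Psd overlaps Nfkb2 on the opposite strand and was itself at 6.07, 6.01 and 3.09 CPM against 1.86, 1.09, 2.04 and 1.29 CPM (-1.68, SE 0.42, DESeq2 adjusted p = 0.0324), so reads in the overlap cannot be assigned. In the responders left out Nfkb2 lay at 45.6 to 74.8 CPM on the common scale. Cytokine receptor and JAK-STAT genes were 20 of 29 lower with a median of -0.20, which was 0.09 without responder 1, and Socs3, a feedback inhibitor of cytokine signalling, was at 41.1, 46.7 and 57.8 CPM against 28.5, 39.7, 33.2 and 28.8 CPM without overlap.

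Growth and metabolism lists lay near 0. MYC and ribosome biogenesis genes were 30 of 36 lower, but by a median of only -0.18, which was -0.29 without responder 1. Npm1, a nucleolar chaperone, was at 1107, 1252 and 1311 CPM against 754, 659, 817 and 1069 CPM (log2 difference -0.57, SE 0.23). Replication and mitosis genes were 29 of 40 higher with a median of 0.09, which was -0.15 without responder 1. Aurkb, a mitotic kinase, was at 54.6, 96.9 and 104 CPM against 110, 112, 93.2 and 147 CPM. Slc2a1, the glucose transporter GLUT1, was at 32.1, 31.5 and 38.1 CPM in responders and 18.0, 19.96, 19.8 and 23.5 CPM in non-responders (-0.74, SE 0.19, edgeR adjusted p = 0.884, DESeq2 adjusted p = 0.0956). It was without overlap, and so was Pdk1, a kinase that inhibits pyruvate dehydrogenase, at 250, 218 and 190 CPM against 133, 176, 76.7 and 154 CPM. The whole glycolysis and hypoxia list had 18 of 30 genes higher with a median of 0.06. Without responder 1 the medians of the glycolysis, nuclear respiratory chain, DNA repair and recombination lists were -0.10, -0.02, -0.09 and -0.03.

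Of the respiratory chain genes of the nucleus, 21 of 30 were higher with a median of 0.07. Uqcrb, a subunit of complex III, was lower, at 56.2, 70.5 and 61.5 CPM against 46.9, 30.3, 31.1 and 28.0 CPM (log2 difference -0.88, SE 0.23). The 12 measured mitochondrially encoded mRNAs were all lower, with a median of -0.42. Without responder 1 all 12 were lower, with a median of -0.60, and without responder 3 8 were lower and 4 higher, with a median of -0.09. Their summed level was 16950, 17730 and 18290 CPM in responders and 12680, 15110, 14970 and 13590 CPM in non-responders, without overlap. Within that list only mt-Co3, a subunit of complex IV, was without overlap, beside 6.02% of all genes tested. Library size differed between the classes in the same direction, and its part in this difference was not tested.

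DNA repair, chromatin and lymphoid transcription factor lists had medians of 0.04, -0.09 and -0.09. Without responder 1 the chromatin and lymphoid transcription factor medians were -0.15 and -0.02. Nbn, a sensor of double-strand breaks, was at 48.5, 63.9 and 50.4 CPM against 35.7, 39.0, 35.2 and 41.0 CPM (log2 difference -0.52, SE 0.18). Among 34 T-cell leukaemia genes 11 were higher and 23 lower, with a median of -0.18. Lmo1, a leukaemia oncogene, was at 2.29, 0.36 and 0.70 CPM against 0.44, 0.19, 0.09 and 0.04 CPM, and Ccnd2, cyclin D2, at 50.4, 10.1 and 35.5 CPM against 10.7, 5.18, 18.9 and 4.88 CPM, both with overlap. In the responders left out Ccnd2 lay at 147 to 520 CPM on the common scale. Of the lists plotted, those of muscle, cytotoxic cells, red cells and fat lay farthest from the median of all genes. The muscle median supports nothing, since 11 of its 18 genes met the filter on low counts through the responders alone. Of the cytotoxic genes 2 of 9, of the erythroid 3 of 12 and of the adipocyte 1 of 12 also met it that way. On the cytotoxic and erythroid lists 1 gene each met it through the non-responders alone. The open symbols show which of these lists moved toward 0 without responder 1.

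**Figure D5:**
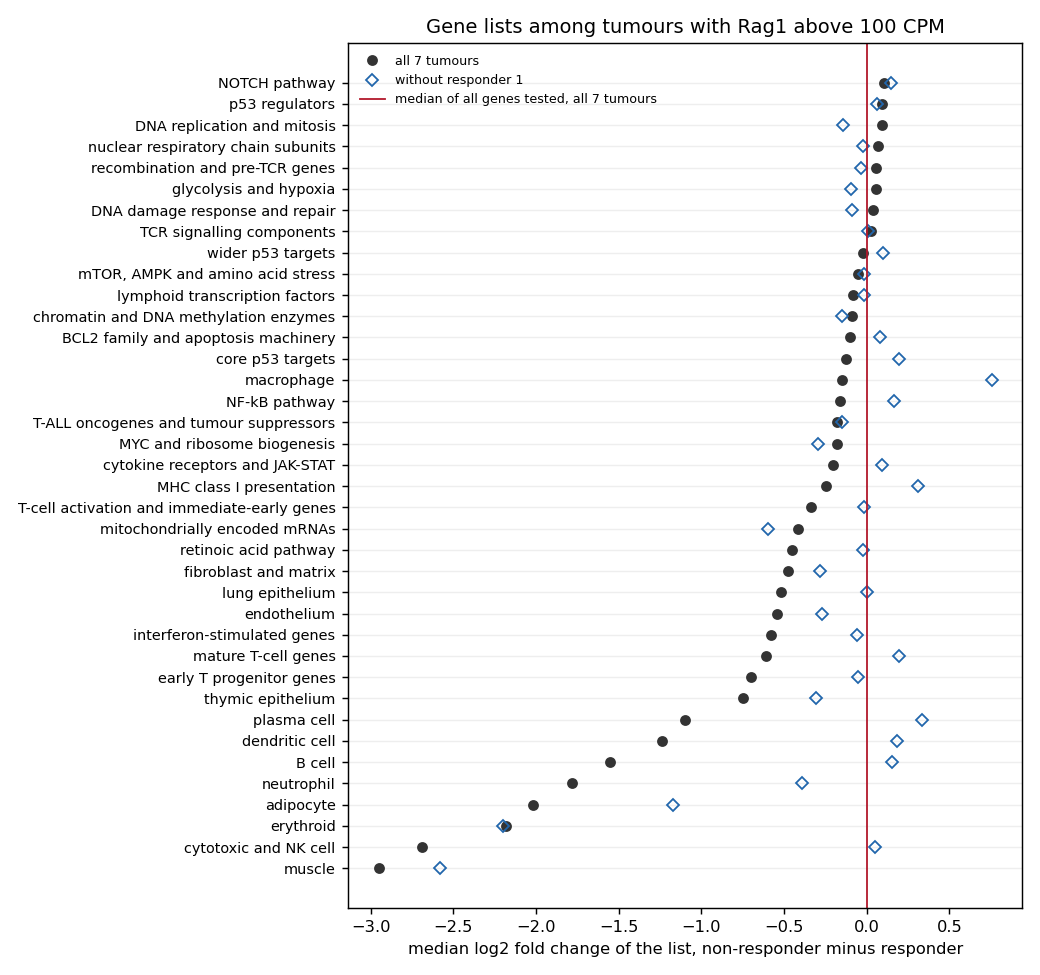
Median log2 fold change of each gene list, non-responder minus responder, for all 7 tumours (filled) and without responder 1 (open), with the median of all genes tested as a line. The erythroid and adipocyte lists stay at -2.20 and -1.17 without responder 1, while the cytotoxic, dendritic and B-cell lists move to 0.05, 0.18 and 0.15.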

How the data were processed

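RNA-seq was measured in 12 tumours, of which 7 are compared here. The authors deposited raw counts per Ensembl gene in 1 table of 37991 genes. Per the labels' protocols, TruSeq mRNA libraries were sequenced as 75-base paired reads, 4 to a lane. Counts came from HTSeq and the authors used DESeq, per the submitters' processing notes, which also name the build NCBIM37, while the labels' extract protocol names mm10; the build is not settled. Aligner, strand setting and tool versions: not given in the sources used here. Symbols and positions were matched by identifier to GENCODE M21 (GRCm38); 5072 identifiers had no symbol.

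Counts were used as deposited. filterByExpr left 17470 genes, scaled by TMM and tested in R 4.3.3 with edgeR 4.0.16 (quasi-likelihood F test, robust, two-sided, Benjamini-Hochberg, threshold 0.05), with response class as the sole term. CPM in the text are TMM-scaled unless said to be by column total. The scripts were tested on simulated data of this design, where DESeq2 made more false calls than edgeR or limma-voom. Alternatives were RLE and upper-quartile scaling, other filters, limma 3.58.1 (voom with quality weights), DESeq2 1.42.0, a fit of all 12 tumours in 3 groups, a covariate of the mean log2 CPM over the genes of other cell types, thinned libraries, gene classes left out and each tumour left out. The members and gene lists were chosen with earlier results of these data known. The responders were chosen from 8 by Rag1.

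The genes named are Rag1, Dntt and Ptcra, Trp53 and 10 core targets, in each direction the 12 genes of lowest p (passing over 2 predicted genes or unnamed identifiers among the higher and 1 among the lower), and up to 3 members of each list with the lowest p. A few genes that this rule names are not reported here. Tigar, Hbb-bs, Tfrc, Ttn, Mb, Myh2, Adipoq, Ucp1, Notch1, Lck and Cd3e, and genes named for how they met the filter, were named outside that rule after their values were seen. Replicate numbers are in accession order.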

Additional observations from a re-analysis of the deposited data

Results flagged for a closer look

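Of 112 named genes, 3 had 1 non-responder far from the other 3, beyond the 95% critical value of Dixon's test for 4 samples, a rule that chance meets in about 1 of 20 groups. Adamts14 was at 24.3 CPM in non-responder 3, with the nearest other non-responder at 40.8 CPM. Uqcrb was at 46.9 CPM in non-responder 1, with the nearest at 31.1 CPM. mt-Co3 was at 5019 CPM in non-responder 2, with the nearest at 3828 CPM. In all 3 genes these tumours lay on the side of the responders, without reaching them.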

How the results depend on the processing

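The edgeR count of 0 genes held under RLE and upper-quartile scaling, both other filters, no robust dispersion, limma-voom, thinned libraries, the 12-tumour fit, the covariate of other cell types, gene classes left out, a threshold of 0.1 and each tumour left out. DESeq2 called 57. Responder 1 and non-responder 2 stood apart from their classes, and leaving both out was added after seeing the data, as were all alternatives for the 3 lists. Genes without overlap numbered 1548 to 2545 with 1 tumour left out and 3439 without those 2, and fewer tumours make lack of overlap easier by construction. Erythroid genes without overlap numbered 5 to 10 with 1 tumour left out, 8 without those 2 and 1 when haemoglobin and related classes were removed from the table. No paired analysis was possible because replicate numbers were given in accession order and the labels carry none.

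Signs reversed in the genes given here, none of which had passed, and the cause was not tested. The log2 value of Ccng1 became 0.0055 with RLE scaling, 0.0099 with no filter, 0.15 in voom, 0.0055 in DESeq2 and 0.011 in the 12-tumour fit. Pmaip1 became 0.0035 with no filter and 0.44 in voom, where Bbc3 was 0.0054, Zmat3 0.22 and Sesn2 0.095. With the covariate of other cell types, Trp53 was -0.16, Bbc3 1.56, Pmaip1 1.52, Ccng1 0.51, Sesn2 0.44, Eda2r 0.36, Mmp8 0.83, Clec9a 1.18, H2-Aa 0.81, Cd74 0.83, Klrk1 0.34, Nkg7 1.68, Fasl 1.86, Bcl2 0.73, Ly6c2 1.53, Cd274 0.48, Rarres2 0.61 and Aurkb -0.070. Without responder 1 and non-responder 2, Trp53 was -0.053, Bbc3 0.74, Pmaip1 1.29, Ccng1 0.17, Phlda3 -0.29, Sesn2 0.29, Cd74 0.050 and Ly6c2 0.078. With 1 tumour left out, the ranges that crossed 0 were -1.87 to 0.62 for Bbc3, -1.57 to 0.071 for Bcl2, -0.25 to 0.22 for Ccng1, -1.47 to 0.67 for Cdkn1a, -3.87 to 0.46 for Fasl, -4.22 to 0.067 for Ly6c2, -0.61 to 0.77 for Phlda3, -0.63 to 0.99 for Pmaip1, -0.44 to 0.17 for Sesn2, -0.023 to 0.31 for Trp53 and -0.73 to 0.61 for Zmat3. The other genes of the 112 recomputed kept their sign in every alternative run. Rag1, Dntt and Ptcra were not among the 112, and Rag1 was at 0.05 in edgeR and -0.39 in voom. DESeq2 passed 30 of 112 that did not pass in edgeR. With 4 against 3 tumours an exact permutation test of 1 value cannot go below p = 0.0571.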

Other observations

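The tumours differed in which receptor beta variable segment dominated. The leading Trbv segment took 75.4% of Trbv counts in responder 1 (Trbv3; 95% Wilson interval 74.5 to 76.2), 61.5% in responder 2 (Trbv13-3; 60.3 to 62.8) and 74.8% in responder 3 (Trbv31; 73.4 to 76.1). In non-responders it took 95.9% (Trbv13-1), 98.3% (Trbv5), 47.8% (Trbv19) and 97.8% (Trbv5) in tumours 1 to 4. The intervals cover counting error only. The classes overlap through non-responder 3, which had the most even segment use of the 7.

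Xist was at 210 CPM in responder 1 and 39.4 CPM in non-responder 2 and below 1.4 CPM in the others. The Y-linked gene Ddx3y was at 245 and 222 CPM in responders 2 and 3, 217 CPM in non-responder 1, 64.7 CPM in non-responder 3 and 14.6 CPM in non-responder 4; it was at 0 to 0.14 CPM in responder 1 and non-responder 2.

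By chromosome, the median log2 fold change ran from -0.12 on chromosome 19 to 0.24 on chromosome 10. In non-responder 4 the median of the 486 genes of chromosome 10 with a mean above 8 CPM lay 0.44 (log2) above the mean of the 7 tumours. Pla2g12b, Adamts14, Tmem19 and Smpd2, 4 of the 12 genes described as higher in non-responders, lie on chromosome 10, where 4.4% of the genes tested lie, against 0 of the 12 lower. These genes and chromosomes were chosen after their values were seen, and copy number was not measured.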
